A study of Homo sapiens with 2 samples.

Results

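The cytosolic chaperonin CCT, also called TRiC, is a barrel of stacked rings that folds newly made proteins in an enclosed chamber, with ATP as its fuel. Each ring is built from related subunits, one from each of the genes TCP1, CCT2, CCT3, CCT4, CCT5, CCT6A, CCT7 and CCT8. Actin and tubulin are its best known clients, so dividing cells depend on it. Musashi-2 (MSI2) binds RNA and is known in blood stem cells and leukaemia for acting on messenger RNA after transcription.

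Peaks of MSI2 CLIP-seq were taken for these 8 genes by gene ID, as listed for 2 replicate libraries. CLIP-seq crosslinks proteins to the RNA they touch with ultraviolet light, recovers a protein with an antibody and sequences the RNA fragments held by it. Both libraries came from NB4, a long-established line grown from a human promyelocytic leukaemia, crosslinked at 400 mJ per square centimetre and recovered with an anti-MSI2 antibody from Abcam. They form 1 group without treatment or genetic change in the labels, and no control antibody or input library was analysed here, so MSI2 binding and repeatable background cannot be told apart and the comparison is between the replicates. The labels do not say that the replicates came from separate cultures. All 8 genes had peaks in both lists, 77 of 25920 peaks in replicate 1 and 74 of 25243 in replicate 2, and the genes were 8 of 8801 gene IDs with a peak in either list. Each peak name ends in a whole number, called the tally here. No header explains it; it was never under 3, and it is read here as behaving like a read count. Tallies summed to 155598 and 133644 over the whole lists, which is not sequencing depth; read totals were not used here. Positions are those of hg19, the build in the submitters' processing notes, counted from 1. The chromosome of the peaks matched the RefSeq table's chromosome for 8 of 8 gene symbols. Exon positions and genome sequence of hg19 were not used here, so whether a site lies in an exon, an intron or an untranslated region is not reported.

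Every CCT gene carried MSI2 peaks at the same positions in both replicates. In replicate 1, 52 of the 77 CCT peaks, or 67.5% (95% Wilson interval 56.5% to 76.9%), had a replicate 2 peak over at least 1 nt on that strand, against 35.7% over all peaks of that list. In replicate 2, 54 of 74, or 73.0% (61.9% to 81.8%), were overlapped, against 37.3% over all peaks. A shared peak was present in 8 of 8 CCT genes, against 45.5% of all gene IDs. The CCT genes had many peaks each, at least 7 in either list, where the median gene ID had 2 in each. Among the 617 gene IDs with at least 7 peaks in each list, the CCT genes included, 98.9% had a shared peak, so a shared peak in all 8 is near the background for such genes. The share of peaks found again in those 617 gene IDs was 47.0% in replicate 1 and 46.6% in replicate 2, below the CCT values. Peaks of 1 gene are not independent, so the intervals cover counting error only, and no test of these differences was made. Shared peaks carried 80.8% of the CCT tallies in replicate 1 and 83.5% in replicate 2, against 54.3% and 54.1% of the tallies of the whole lists. This share of tallies was not computed for the 617 gene IDs, so the number of peaks per gene is not accounted for in it.

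CCT peaks had higher tallies than the lists as a whole. The median tally was 6 in replicate 1 and 5 in replicate 2, where the median of all peaks was 4 in each and that of the peaks of gene IDs with as many peaks was 5 and 4. The lowest tally, 3, was held by 12 CCT peaks in replicate 1 and 14 in replicate 2, or 15.6% and 18.9%, against 35.7% and 45.3% of all peaks and 23.3% and 32.4% of the peaks of gene IDs with as many peaks. A tally of 10 or more was held by 20 CCT peaks in replicate 1 and 13 in replicate 2, or 26.0% and 17.6%. The same class held 13.2% and 9.53% of all peaks, and 21.0% and 15.2% of the peaks of gene IDs with as many peaks. The CCT shares in this class were thus closer to those of gene IDs with as many peaks. No counting interval was computed for them.

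Pooled over all gene IDs, strong peaks were found again more often, so recurrence was set out by tally. At a tally of 6 to 9, 20 of 24 CCT peaks of replicate 1 were shared, or 83.3% (95% Wilson interval 64.1% to 93.3%), against 54.9% of all peaks in that class. In replicate 2 the same class had 15 of 17 shared, or 88.2% (65.7% to 96.7%), against 64.9%. At a tally of 4 or 5 the shares were 47.6% (28.3% to 67.6%) in replicate 1, against 28.6%, and 70.0% (52.1% to 83.3%) in replicate 2, against 38.6%. At the lowest tally, 3 of 12 and 5 of 14 CCT peaks were shared, with intervals of 8.89% to 53.2% and 16.3% to 61.2%, against 11.9% and 15.5% of all peaks. In each class of both replicates the CCT share was above that of all peaks, though its counting interval held the value of all peaks at a tally of 3, of 4 or 5 and of 10 or more in replicate 1 and of 10 or more in replicate 2. Gene IDs with as many peaks were not set out by tally, so the number of peaks per gene is not accounted for in these differences.

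**Figure D1:**
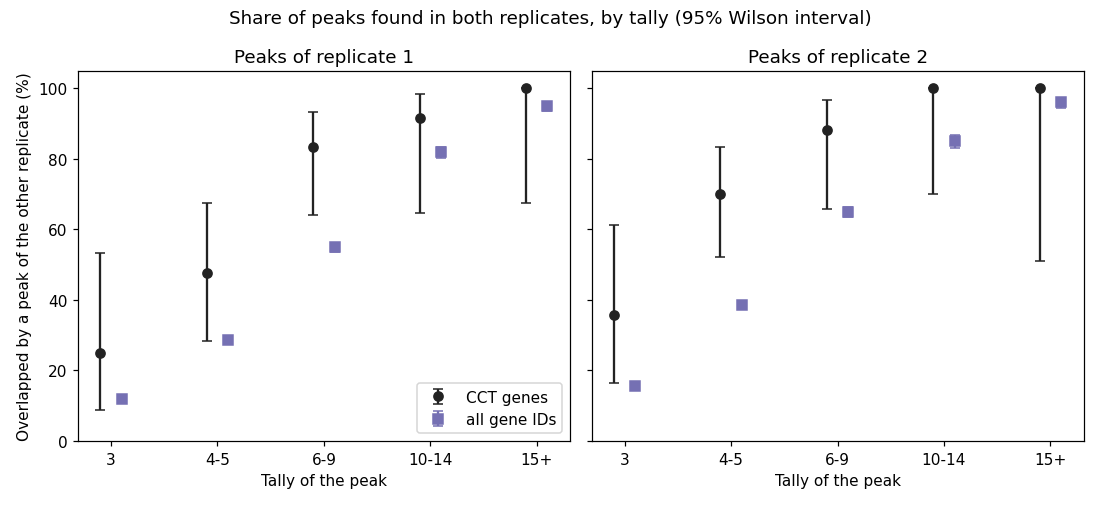
Percent of peaks overlapped by a peak of the other replicate (vertical axis) by the tally of the peak (horizontal axis), for the CCT genes (circles) and all gene IDs (squares), with 95% Wilson intervals. The CCT shares lie above the squares in all classes, for example 83.3% against 54.9% at a tally of 6 to 9 in replicate 1, and the intervals are wide because a class holds 4 to 30 CCT peaks.

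Overlapping peaks of both lists were joined into sites, which gave 96 sites in the 8 genes: 51 in both replicates, 25 in replicate 1 alone and 20 in replicate 2 alone. A site absent from a list had no peak called there, which does not show that it had no reads. Of the 45 sites in 1 replicate alone, 44 had a tally under 10. Pooled over all gene IDs, peaks with a tally of 10 or more were mostly shared. In replicate 1 they were shared for 19 of 20 CCT peaks, against 87.1% of all such peaks. In replicate 2 it was 13 of 13, against 89.4%. The 5 sites in 1 replicate alone with a tally of 8 or more were at CCT6A (11 and 8 in replicate 1, and 8 in replicate 2), CCT5 (9 in replicate 2) and CCT8 (8 in replicate 1). They were picked out after their values were seen. Sites with a tally of 10 or more in both replicates numbered 11 and lay in 5 genes, CCT2, CCT4, CCT5, CCT7 and CCT8. Positions below are distances from the 5′ end of the stretch of genome between the first and last listed peak of a gene, introns included.

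**Figure D2:**
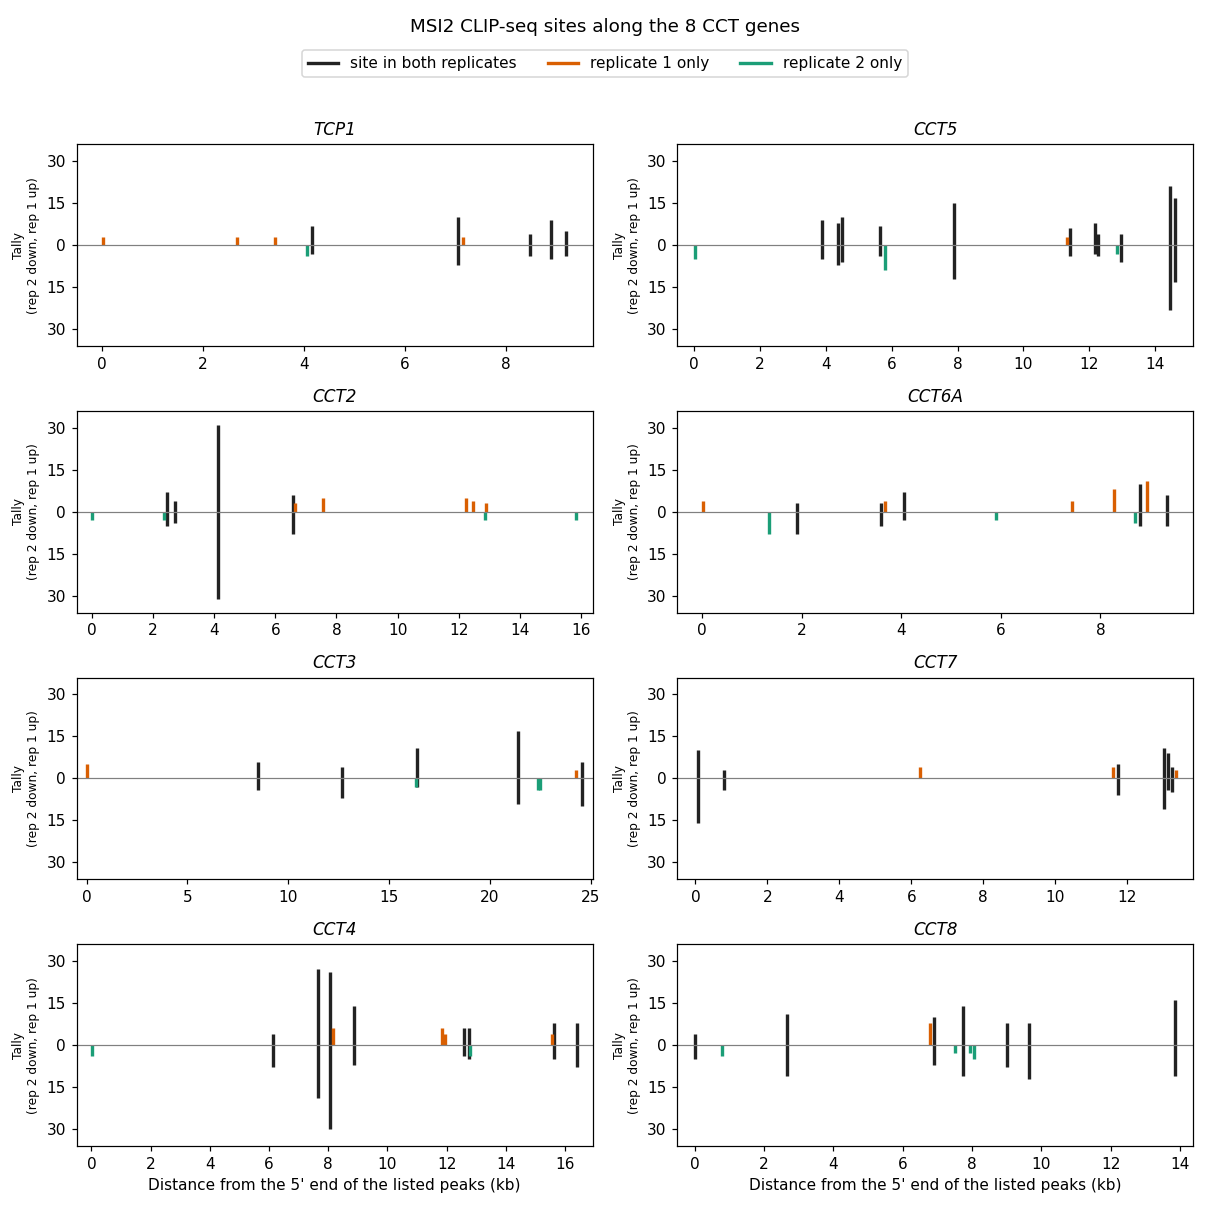
Tally of each site (vertical axis, replicate 1 upward and replicate 2 downward) against its distance in kb from the 5′ end of the listed peaks of the gene (horizontal axis), with sites in both replicates in black and sites in 1 replicate in orange or green. The tallest sites stand in both replicates, at CCT2 (31 and 31) in the 5′ part of the stretch, at CCT4 (27 and 19, then 26 and 30) near the middle and at CCT5 (21 and 23) near the 3′ end.

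The CCT4, CCT5 and CCT2 subunits lie on the side of the ring that binds ATP tightly. CCT4, the delta subunit, can assemble into rings on its own when made without the other subunits. It had 12 peaks in replicate 1 and 10 in replicate 2 (ENSG00000115484.10, minus strand, 62095780 to 62112205 of chromosome 2), with summed tallies of 119 and 94. Its 2 strongest sites stood 7.64 and 8.05 kb from the 5′ end. The peak at 62104142 to 62104188 had a tally of 26 in replicate 1 and the authors' p of 1.11e-20, and in replicate 2 it ran from 62104130 to 62104190 with a tally of 30 and p of 9.85e-24. Ordered by the authors' p, this peak was number 144 in its list in replicate 1 and number 71 in replicate 2, the best rank of any CCT peak in either. The other, at 62104528 to 62104603, had a tally of 27 in replicate 1 and 19 in replicate 2, where it ended at 62104606. Ordered by the authors' p, this second peak was number 153 in replicate 1 and number 473 in replicate 2. The first site thus ranked higher in replicate 2, and the second in replicate 1. Further sites found in both had tallies of 14 and 7 at 8.86 kb, 4 and 8 at 6.14 kb, and 8 and 8 at 16.4 kb, the last being the 3′-most CCT4 site. The remaining shared sites, at 12.6, 12.8 and 15.6 kb, had tallies of 6, 6 and 8 in replicate 1 and 4, 5 and 5 in replicate 2. Of 14 CCT4 sites, 8 were in both replicates.

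CCT5, the epsilon subunit, is mutated in a hereditary sensory neuropathy and can also form rings alone. Its peaks numbered 12 in replicate 1 and 14 in replicate 2 (ENSG00000150753.7, plus strand, 10250432 to 10265089 of chromosome 5), with summed tallies of 112 and 104. All but 1 of the replicate 1 peaks were found again, 11 of 12, and so were 11 of the 14 peaks of replicate 2. The strongest sites lay close together at the 3′ end. The first ran from 10264832 to 10264918 in replicate 1, with a tally of 21 and p of 2.40e-12, and from 10264831 to 10264943 in replicate 2, with a tally of 23 and p of 1.18e-13. The next ran from 10264989 to 10265089 in replicate 1 with a tally of 17 and from 10264980 to 10265071 in replicate 2 with a tally of 13. A broad site in the middle, 7.88 kb from the 5′ end, had tallies of 15 and 12 and was 132 nt wide in replicate 1, the widest CCT peak. The 4 shared sites between 3.87 and 5.65 kb had tallies of 9, 8, 10 and 7 in replicate 1 and of 5, 7, 6 and 4 in replicate 2, so each was lower in replicate 2. The 4 between 11.4 and 12.95 kb had tallies of 6, 8, 4 and 4 in replicate 1 and 4, 3, 4 and 6 in replicate 2. CCT5 thus had a run of modest sites on either side of its middle and its strongest sites at the end.

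CCT2, the beta subunit, has also been described as a receptor that brings protein aggregates to autophagy. It had 10 peaks in replicate 1 and 9 in replicate 2 (ENSG00000166226.7, plus strand, 69979276 to 69995151 of chromosome 12), with summed tallies of 68 and 60. A single site of touching peaks held 45.6% of its tally in replicate 1 and 51.7% in replicate 2. In replicate 1 the site was listed as 69983343 to 69983413 with a tally of 19 and p of 9.51e-14, then 69983414 to 69983468 with a tally of 12. In replicate 2 it was 69983352 to 69983429 with a tally of 22 and p of 1.78e-16, then 69983430 to 69983469 with a tally of 9. The lists cut the site at different bases, yet its tally summed to 31 in each. The other shared sites were weak, with tallies of 7 and 5 at 2.47 kb, 4 and 4 at 2.73 kb, and 6 and 8 at 6.57 kb. All 4 shared sites lay in the 5′ part of the stretch. The 6 sites beyond 7 kb were each in 1 replicate alone with tallies of 3 to 5. Among them, 69992129 to 69992168 in replicate 2 and 69992169 to 69992188 in replicate 1 touched without overlap, so they were not counted as shared.

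CCT7, the eta subunit, sits next to CCT5 in the ring. It had 9 peaks in replicate 1 and 7 in replicate 2 (ENSG00000135624.11, plus strand, 73466788 to 73480127 of chromosome 2), with summed tallies of 53 and 46. All 7 peaks of replicate 2 and 6 of the 9 in replicate 1 were shared. Its sites stood at both ends. At the 5′ end a peak at 73466840 to 73466925 had a tally of 10 in replicate 1 and p of 1.08e-06. Replicate 2 listed 2 touching peaks there, from 73466788 to 73466861 with a tally of 6 and from 73466862 to 73466925 with a tally of 10 and p of 6.26e-07. A site 7 to 8 nt wide at 0.781 kb had tallies of 3 and 4. By the authors' p, the strongest CCT7 peak lay at the 3′ end in replicate 1 and at the 5′ end in replicate 2. Of the sites at the 3′ end, the strongest began at 73479767 in replicate 1 and 73479768 in replicate 2. Its tally was 11 in each, with the authors' p of 4.57e-07 and 1.67e-06. It was followed closely by shared sites of 9 and 4, and of 4 and 5. A further shared site at 11.75 kb had tallies of 5 and 6. Between 0.781 and 11.6 kb a single peak, of tally 4 in replicate 1, was listed.

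TCP1, the alpha subunit and the first of the family to be known, from the mouse t complex, had the lowest tallies. It had 9 peaks in replicate 1 and 7 in replicate 2 (ENSG00000120438.7, minus strand, 160199933 to 160209151 of chromosome 6), with summed tallies of 47 and 27. Its strongest peak in replicate 1, at 160202088 to 160202144, had a tally of 10 and p of 6.34e-07. Replicate 2 listed 2 peaks over that site, with tallies of 4 and 3. In replicate 2 the strongest, at 160200252 to 160200295, had a tally of 5 and p of 0.00209, and replicate 1 had a tally of 9 there. The remaining shared sites had tallies of 7 and 3, 4 and 4, and 5 and 4. Apart from the site with 4 in each, every shared TCP1 site was lower in replicate 2, and 4 of the 5 shared sites lay beyond 7 kb of the 9.22 kb stretch.

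CCT8, CCT3 and CCT6A encode the theta, gamma and zeta subunits, on the side of the ring that binds ATP weakly. CCT8, whose rise in human pluripotent cells is known to increase assembly of the complex, had 8 peaks in replicate 1 and 11 in replicate 2 (ENSG00000156261.8, minus strand, 30428715 to 30442600 of chromosome 21). Its summed tallies were 79 and 80. The strongest in replicate 1, at 30428716 to 30428781, was the 3′-most site, with a tally of 16 and p of 1.39e-11, and replicate 2 listed it from 30428715 to 30428784 with a tally of 11. The strongest in replicate 2, at 30432930 to 30432983, had a tally of 12 and p of 1.14e-08, and replicate 1 listed a tally of 8 at 30432966 to 30432981. Sites at 2.65 and 7.75 kb had tallies of 11 and 11, and of 14 and 11. The other shared sites had tallies of 10 and 7, 8 and 8, and 4 and 5. The last of these, at the 5′ end, was 1 nt wide in replicate 1 and 34 nt wide in replicate 2. The shared CCT8 sites thus lay at both ends, at 2.65 kb and between 6.91 and 9.64 kb. No CCT8 site stood between 2.65 and 6.80 kb or between 9.64 and 13.85 kb. Of the 8 replicate 1 peaks, 7 were found again.

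CCT3 had 7 peaks in replicate 1 and 8 in replicate 2 (ENSG00000163468.9, minus strand, 156278773 to 156303358 of chromosome 1), with summed tallies of 52 and 44. Its strongest peak in replicate 1, at 156281935 to 156282014, had a tally of 17 and p of 1.22e-12, against a tally of 9 in replicate 2. Its strongest in replicate 2, at 156278773 to 156278834 at the 3′ end, had a tally of 10 and p of 4.20e-06, against 6 in replicate 1. The strongest CCT3 site therefore differed between the lists. A peak beginning at 156286957 had a tally of 11 in replicate 1 and 3 in replicate 2, the most uneven of the shared CCT sites. The other shared sites had tallies of 4 and 7 at 12.68 kb and of 6 and 4 at 8.50 kb.

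CCT6A, which has a testis paralog in CCT6B, was the least repeatable by tally. It had 10 peaks in replicate 1 and 8 in replicate 2 (ENSG00000146731.6, plus strand, 56122120 to 56131488 of chromosome 7), with summed tallies of 60 and 41. Shared peaks carried 48.3% of its tally in replicate 1 and 63.4% in replicate 2. Its largest tally in replicate 1, 11 at 56131012 to 56131079, had no peak in replicate 2, and its strongest by p, at 56130881 to 56130930, had a tally of 10 and p of 3.35e-05, against a tally of 5 in replicate 2. In replicate 2 the strongest were 2 peaks with a tally of 8. That at 56124002 to 56124048, with p of 9.81e-06, was shared with a peak of tally 3, and the other, at 56123426 to 56123491, was in replicate 2 alone. The further shared sites had tallies of 7 and 3, 3 and 5, and 6 and 5. The 5 sites beyond 8 kb held the 3 largest tallies of replicate 1, and 2 of them were in both replicates.

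Summed over a gene, the replicates did not differ beyond counting error. After scaling by the sum of all tallies in each list, the log2 ratio of replicate 1 over replicate 2 was largest in size at TCP1, 0.58 (95% exact interval -0.13 to 1.32), and next at CCT6A, 0.33 (-0.27 to 0.94). At CCT8 it was -0.24 (-0.70 to 0.23), and at CCT3 it was 0.02 (-0.59 to 0.63). The interval held 0 in 8 of 8 genes, and 4 genes had the higher scaled tally in replicate 1. The 8 genes together held 0.379% of all tallies in replicate 1 (exact interval 0.349% to 0.411%) and 0.371% in replicate 2 (0.339% to 0.405%). These sums grow with how much of a gene was called and with transcript length and abundance, which were not measured here. Per 100 nt of listed peak, CCT4 had a tally of 35.1 in replicate 1, over 339 nt, and 20.5 in replicate 2, over 459 nt. CCT8 had 27.3 over 289 nt and 20.9 over 383 nt. CCT5 had 19.0 over 591 nt and 16.6 over 628 nt. The other 5 genes lay between 12.8 and 17.1 in replicate 1 and between 11.2 and 15.4 in replicate 2. Among them CCT2, with 17.1 and 15.4, lay above TCP1, with 13.1 and 11.2, and CCT7, with 12.8 and 12.4. Every other pair of these 5 genes had ranges over the replicates that overlap, so no further order is given. CCT4 and CCT8 overlapped each other and lay above the other 6 genes in both replicates. In the lists of all gene IDs by summed tally, CCT4 was number 117 in replicate 1 and 160 in replicate 2, CCT5 was number 136 in each, and TCP1, the last of the 8, was number 836 and 1305.

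**Figure D3:**
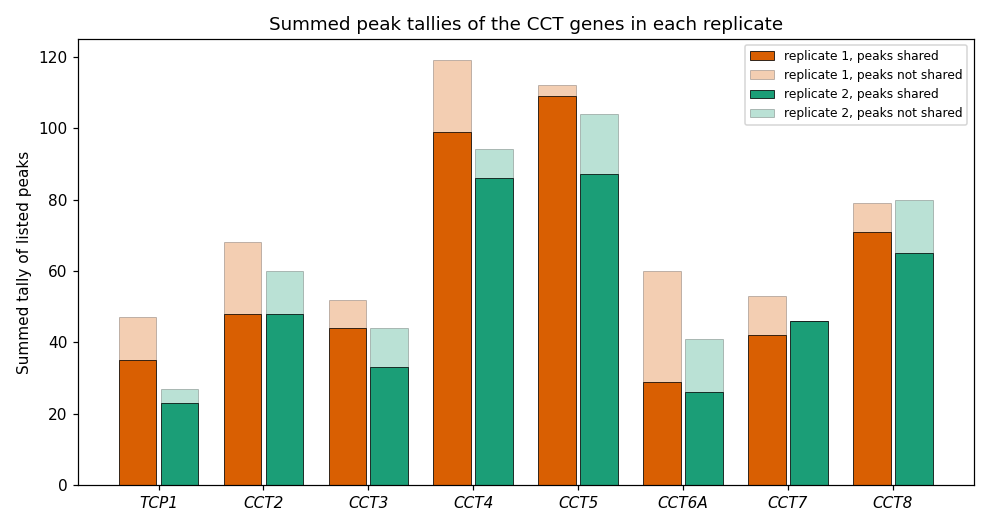
Summed tally of the listed peaks (vertical axis) of each CCT gene (horizontal axis), with replicate 1 in orange and replicate 2 in green, split into shared peaks (full colour) and peaks found in 1 replicate (pale). CCT4 and CCT5 are the tallest in both replicates, with 119 and 94 and with 112 and 104, and all of the CCT7 tally in replicate 2 is in shared peaks.

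Across the 51 shared sites the tallies of the replicates rose together, with Spearman's rho at 0.56 and Pearson's r, taken on log2 tallies, at 0.67. These sites share 2 libraries and were chosen for having a tally of at least 3 in each, so the correlation is a description. The list sums were higher in replicate 1, 155598 against 133644, and site tallies here and above were not scaled by them. Unscaled, the tally was higher in replicate 1 at 28 sites, higher in replicate 2 at 15 and equal at 8. The values lay within 2-fold of each other at 45 of 51. The same measures were not computed over the shared sites of all gene IDs, so these site values have no background here. The inner interval that each list gives within a peak had its centre a median of 6 nt apart between overlapping CCT peaks, against 7 nt over all overlapping peaks of the same gene ID. It lay within 10 nt in 38 of 55 CCT pairs, or 69.1%, against 65.2%.

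**Figure D4:**
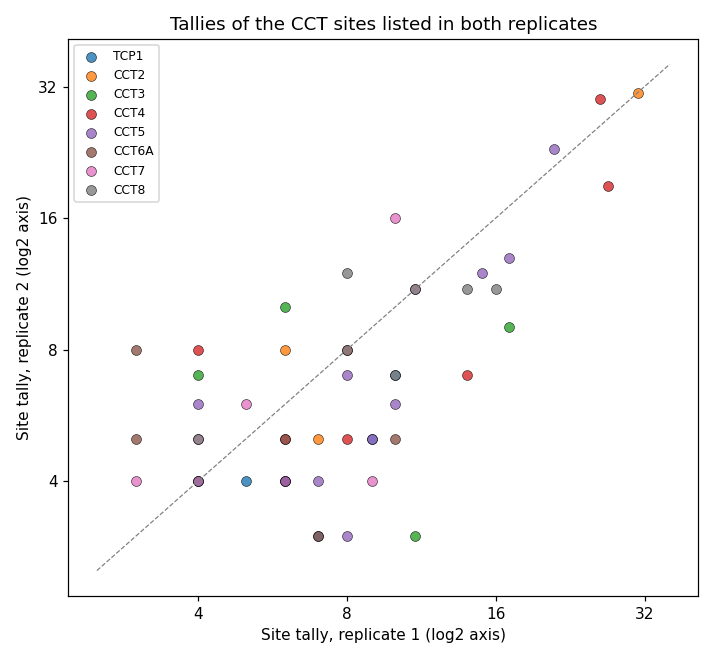
Tally in replicate 2 (vertical axis) against tally in replicate 1 (horizontal axis) of the 51 shared CCT sites, coloured by gene, on log2 axes with a dashed line where both are equal. Points at the same values lie over each other, so 40 positions are seen. The sites above 16 in both lists, at CCT2, CCT4 and CCT5, stand apart at the upper right.

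Many CCT sites had an edge at the same base in both replicates. Of the 55 overlapping CCT pairs, 15, or 27.3%, had the same start or the same end, against 13.6% over all gene IDs and 15.5% over those with as many peaks. In 9 pairs, or 16.4%, the inner interval lay against an edge of the peak in both lists, against 1.78% over all gene IDs and 2.57% over those with as many peaks. All 9 had that edge at the same base, and in each it was the edge with the lower genome coordinate. Over all gene IDs, 154 of the 170 pairs of this form also had an edge at the same base. For pairs of this form, an edge at the same base is thus near the background. The 9 CCT pairs lay in 6 genes. CCT4 had them at 62104528, with tallies of 27 and 19, and at 62099593, with 6 and 4. CCT8 had them at 30435673, with 10 and 7, and at 30433574, with 8 and 8. TCP1 had them at 160204973, with 7 and 3, and at 160200659, with 4 and 4. The others were at 156286957 in CCT3, with 11 and 3, at 69985839 in CCT2, with 6 and 8, and at 10256067 in CCT5, with 7 and 4. On the minus strand, 7 of 26 CCT pairs had this form and the edge faced the 3′ end of the RNA, and on the plus strand 2 of 29 did and it faced the 5′ end. Over all gene IDs the lower coordinate also prevailed, with 159 pairs against 10 at the higher coordinate, in 2.32% of minus-strand and 1.03% of plus-strand pairs. The pattern was chosen after the values were seen and has no test, and whether these bases are exon ends was not tested.

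Peaks under 15 nt wide made up 13 of 77 CCT peaks in replicate 1, or 16.9%, and 12 of 74 in replicate 2, or 16.2%. Over all gene IDs the shares were 9.52% and 12.9%, and over those with as many peaks they were 13.3% and 13.9%, so that this share was little above the background in replicate 2. The narrowest were 1 nt in replicate 1 and 2 nt in replicate 2, both at CCT8, with tallies of 4 and 3.

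Along the genes, a smaller share of CCT peaks lay near the 3′ end than of the peaks of gene IDs with as many. In the 3′-most 25% of the stretch lay 35 of 77 CCT peaks in replicate 1, or 45.5%, against 54.4%, and 31 of 74 in replicate 2, or 41.9%, against 53.0%. The median position, with 0 at the 5′ and 1 at the 3′ end, was 0.67 in replicate 1 and 0.58 in replicate 2. By gene it ran from 0.42 and 0.26 at CCT2, with its strong site in the 5′ part, to 0.88 and 0.88 at CCT7. At CCT4 it was 0.72 and 0.65, at CCT5 0.78 and 0.66, and at TCP1 0.76 and 0.77. The stretch is set by the peaks themselves and includes introns, and these shares were not tested. No counting interval was computed for them, so the lower CCT share may lie within counting error. The replicates also have many sites in common, so their shares are not separate observations.

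No peak under another gene ID overlapped the stretch of any CCT gene on either strand in either list, and no CCT interval was listed under another ID. In the RefSeq table of GRCh38, TCP1 overlaps the snoRNA genes SNORA20 and SNORA29 and the gene ACAT2, and CCT6A overlaps SNORA15 and SNORA22B. CCT3 overlaps TSACC, and CCT4 overlaps COMMD1 and the long noncoding RNA gene LOC124907773. The table also names 17 pseudogenes after these genes, 5 of them after CCT6, and whether reads could also be placed there was not tested.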

How the data were processed

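The deposited files are 1 peak list for each of 2 MSI2 CLIP-seq libraries of NB4 cells. Per the submitters' processing notes the authors used cutadapt, Bowtie 1.0.0 and STAR 2.3.0e with build hg19, and the names of the deposited lists record trimming and removal of duplicates. The peak caller was not given in the sources used here. Deposited p-values come from the authors and served to rank and filter peaks within a list. Peaks of the 8 gene IDs were taken and the tally read from the peak name. A peak was shared if a peak of the other list covered at least 1 nt of it on that strand. Gene symbols come from the choice of members. No column of the lists gives symbols and the RefSeq table holds 0 Ensembl IDs, so the chaperonin cofactors and blood cell markers fixed for comparison were not analysed here, and neither was the motif TAG. Named were all 8 members, each shared site and the strongest peak by p in each list. The members and lists were chosen with earlier results of these data known, and gene IDs with as many peaks, peak edges and peak width were added after the data were seen. No test was run, since 2 libraries of 1 group allow none. Counts are pooled over libraries only where stated, and intervals (Wilson, exact) cover counting error only. The overlap step was tested on simulated data. Software was matplotlib 3.10.9, SciPy 1.17.1, pandas 2.3.3, NumPy 2.4.6 and Python 3.11.15.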

Additional observations from a re-analysis of the deposited data

How the results depend on the processing

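Of 32 recomputed values, 25 moved by less than the counting interval, the spread between replicates or, for counts, 1.5 times. A reciprocal overlap of 50% lowered the share of CCT peaks found again to 46.8% in replicate 1 and 48.6% in replicate 2, since it asks for more overlap. Under the other alternatives run for it (midpoints within 50 nt, the stronger 50% and the strongest 10% by p, peaks merged within 50 nt, a tally of 3 left out) the share ran from 66.1% to 76.5% and from 65.0% to 76.7%. A shared peak was present in 8 of 8 genes except with the strongest 10% by p, which left 6, without TCP1 and CCT6A. Matching values for all gene IDs were not computed under these alternatives. The CCT values under them therefore have no background here and cannot be set against the shares of all peaks at 1 nt. The CCT share of all tallies, 0.375% over both lists, was 0.444% without peaks of tally 3, which left 125 CCT peaks. It was 0.459% with the stronger 50%, which left 111, and 0.39% with each interval counted once, which left all 151. Leaving out either replicate gave 0.371% to 0.379%. The number of CCT peaks, 151 in both lists, was 74 to 77 with 1 replicate left out, by construction. The median position, 0.63, ran from 0.58 to 0.67. The motif alternatives were not run, because no genome of hg19 was used here. No paired analysis was possible because both replicates belong to 1 group. Tallies of 3 to 5 limit most weak sites.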

Other observations

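Each peak name also holds a running number that follows genome order within a gene, and some numbers are skipped in the lists. In the CCT genes 7 of 84 numbers were skipped in replicate 1 and 7 of 81 in replicate 2, or 8.33% and 8.64%, against 8.77% and 9.52% over all gene IDs. By gene, CCT2 had 4 skipped numbers in replicate 1 and none in replicate 2, while CCT3 and CCT6A had 3 each in replicate 2 and none in replicate 1. No label or header says what the skipped numbers stand for.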
